A study of Mus musculus with 6 samples.

Results

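The 8 genes described here, Msln, Upk3b, Upk1b, Wt1, Lrrn4, Gpm6a, Bnc1 and Muc16, mark mesothelial cells, the flat cells that line the outer surface of the lung. They were chosen by name and found through their Ensembl identifiers among the 55573 genes of the deposited count table. All 8 passed the filter on low counts, which left 16965 genes to be tested. Total RNA of lung tissue was sequenced in 6 libraries, from C57BL/6 wild-type animals that were 9 to 10 weeks old. In the 3 SS-31H_CS libraries the animals breathed cigarette smoke and were given SS-31, a peptide antioxidant that collects in mitochondria, at 5 mg/kg once a day. In the 3 CS libraries they breathed smoke alone, for 75 min in each of 2 daily sessions, 5 days a week over 4 weeks. The labels give the smoke schedule for CS only, name no vehicle, and do not say that each library came from its own mouse, so the p-values measure the spread between these libraries, which may be technical. No smoke-free lungs were analysed here, and the comparison addresses SS-31 during smoke exposure.

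The pleural mesothelium is a single sheet of cells that carries microvilli, secretes hyaluronan and lubricating proteins into the pleural space and lets the lung slide against the chest wall. Mesothelial cells descend from the mesoderm but express keratins as epithelia do, and they can take on a fibroblast-like form after injury. They are a small share of the cells of a lung. In bulk RNA, fewer mesothelial cells and less RNA per mesothelial cell cannot be told apart.

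Total counts ran from 15611925 to 17360052 per library. The 8 genes had between 106 counts (Wt1 in SS-31H_CS replicate 1) and 6235 counts (Msln in CS replicate 3) in a library. Levels are given in CPM, counts scaled to library size, in which 3 counts stood for 0.172 to 0.185 CPM. CS replicate 3 and SS-31H_CS replicate 3 lay at opposite ends of the first principal component, which held 46.4% of the variance. The quasi-likelihood test of edgeR called 26 of all genes tested (0.153%) changed, at a Benjamini-Hochberg adjusted p under 0.05. With 1 library left out it called 15 (without CS replicate 3) or 1 to 2 (without any of the other 5).

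All 8 genes were detected in every library, and none passed the test for a change with SS-31, which does not show that their levels were equal. By edgeR 0 of the 8 were called, against 0.153% of all genes tested (0.0707% higher and 0.0825% lower). At an unadjusted p under 0.05, 1 of the 8 was higher (Gpm6a) and 0 were lower, against 18.2% of all genes (9.93% higher and 8.23% lower). DESeq2 called 0 of the 8 and 5.94% of the genes it adjusted, and limma voom called 0 of the 8 and 0.0354% of all genes. Log2 fold changes, given as SS-31H_CS over CS, ran from -0.43 for Wt1 to 0.36 for Gpm6a with a median of 0.26, while the median over all genes tested was 0.01. Of the 8, 5 were above 0, against 51.4% of all genes. Leaving out CS replicate 1 gave a median of 0.03 and leaving out SS-31H_CS replicate 1 a median of 0.05, against 0.25 to 0.38 without any one of the other 4 libraries. Gpm6a was the one gene of the 8 whose groups did not overlap in CPM, a pattern shown by 26.1% of all genes (13.6% in its direction).

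**Figure D1:**
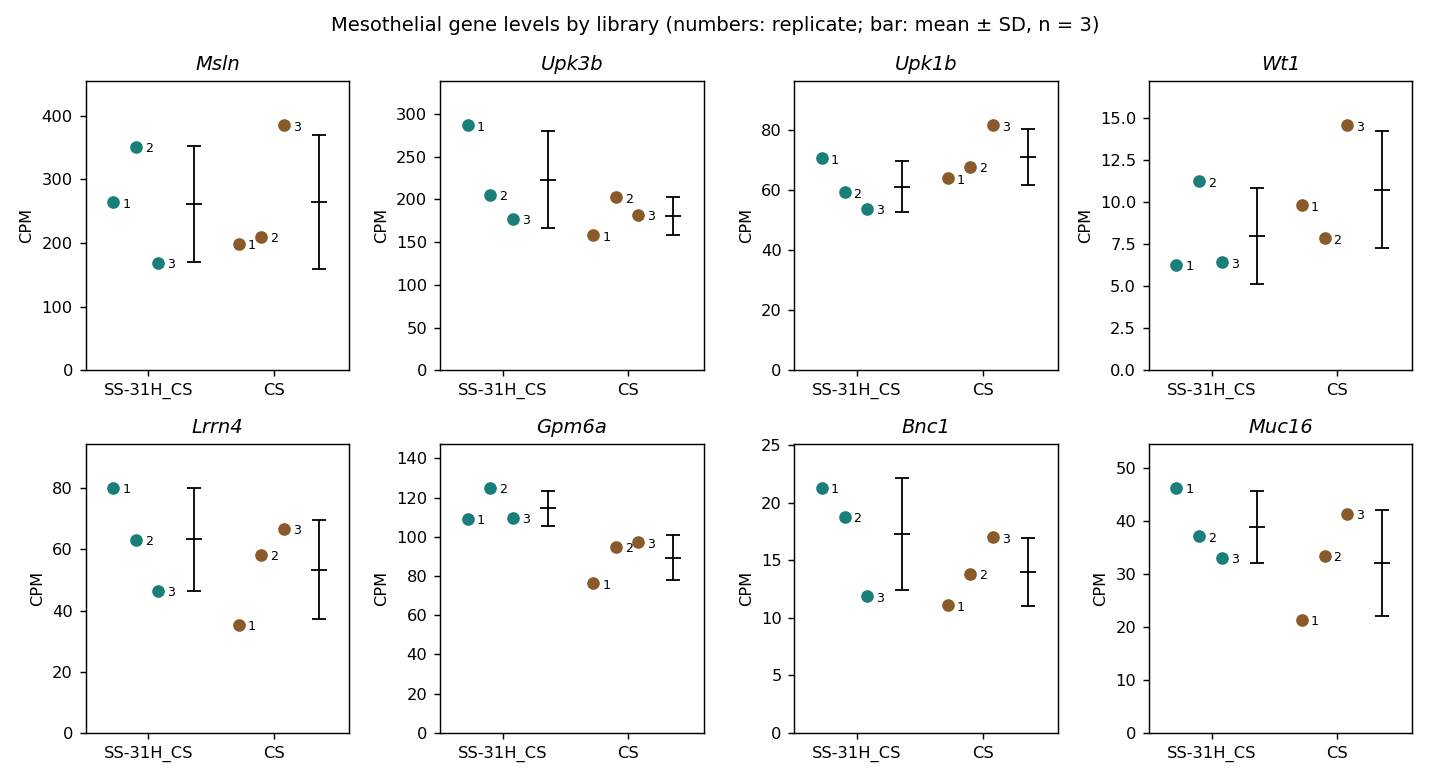
CPM (counts scaled to TMM library size) of the 8 mesothelial genes in the 3 SS-31H_CS and 3 CS libraries. Points are libraries numbered by replicate, and the bar beside them is the mean with its SD. The 3 SS-31H_CS values of Gpm6a (109 to 125 CPM) lie above the 3 CS values (76.2 to 97.2 CPM), and the groups overlap for the other 7 genes.

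Msln and Muc16 encode cell surface glycoproteins that, in human cells, bind each other. Msln (mesothelin, ENSMUSG00000063011, chromosome 17, 25748613 to 25754378, minus strand, GRCm38) had 264, 351 and 169 CPM in SS-31H_CS replicates 1, 2 and 3, against 199, 209 and 385 CPM in CS replicates 1, 2 and 3. The highest Msln value was that of CS replicate 3 and the lowest that of SS-31H_CS replicate 3, so each group spanned much of the range of the other. The means were 261 ± 90.9 CPM in SS-31H_CS and 264 ± 105 CPM in CS (SD, n = 3 each). The log2 fold change of Msln was -0.02 with a 95% interval from -0.75 to 0.72 (SE 0.32, edgeR adjusted p = 0.982), and its sign turned in 8 of 18 alternative analyses. Without CS replicate 3 and SS-31H_CS replicate 3 it was 0.59. Muc16, the large membrane mucin known as CA125 (ENSMUSG00000109564, chromosome 9, 18495455 to 18674530, minus strand), had 46.3, 37.2 and 33.2 CPM in SS-31H_CS and 21.4, 33.5 and 41.4 CPM in CS. CS replicate 1 was the lowest of the 6 and the groups overlapped. Its log2 fold change was 0.28, with an interval from -0.26 to 0.82 (edgeR adjusted p = 0.557), and 0.05 without CS replicate 1.

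Upk3b and Upk1b belong to the uroplakins, membrane proteins best known from the plaques of the bladder lining. Upk3b (ENSMUSG00000042985, chromosome 5, 136038496 to 136046487, plus strand) had 287, 205 and 177 CPM in SS-31H_CS and 158, 203 and 182 CPM in CS. SS-31H_CS replicate 1 was the highest and the other 5 libraries lay between 158 and 205 CPM. The log2 fold change was 0.30, with an interval from -0.13 to 0.74 (edgeR adjusted p = 0.430), and 0.07 without SS-31H_CS replicate 1. Upk1b, a tetraspanin (ENSMUSG00000049436, chromosome 16, 38773184 to 38800328, minus strand), had 70.5, 59.2 and 53.6 CPM in SS-31H_CS and 63.8, 67.7 and 81.5 CPM in CS. Its log2 fold change was -0.22, with an interval from -0.54 to 0.11 (edgeR adjusted p = 0.447). Leaving out SS-31H_CS replicate 1 gave -0.34, leaving out SS-31H_CS replicate 3 gave -0.14, leaving out CS replicate 3 gave -0.11, and leaving out the last 2 together gave -0.02. Both uroplakin genes had overlapping groups, and their fold changes had opposite signs.

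Gpm6a and Lrrn4 encode membrane proteins that are also made by neurons. Gpm6a, a membrane glycoprotein gene (ENSMUSG00000031517, chromosome 8, 54954843 to 55060871, plus strand), had 109, 125 and 109.6 CPM in SS-31H_CS and 76.2, 94.8 and 97.2 CPM in CS. Every SS-31H_CS library was above every CS library. The means were 115 ± 8.99 CPM in SS-31H_CS and 89.4 ± 11.5 CPM in CS (SD, n = 3 each), with a log2 fold change of 0.36 and an interval from 0.07 to 0.65 (SE 0.13, edgeR unadjusted p = 0.0225, adjusted p = 0.210). Leaving out each library in turn gave 0.25 to 0.42, and no adjusted p over the 18 alternatives was under 0.171. Lrrn4, a leucine-rich repeat protein (ENSMUSG00000043110, chromosome 2, 132868305 to 132880891, minus strand), had 80.1, 63.1 and 46.5 CPM in SS-31H_CS and 35.3, 58.2 and 66.6 CPM in CS. Its groups overlapped, with a log2 fold change of 0.24 and an interval from -0.35 to 0.84 (edgeR adjusted p = 0.644), and 0.01 without CS replicate 1. Markers of neurons and Schwann cells, which also use Gpm6a, summed to 55.9, 51.2 and 53.5 CPM in SS-31H_CS and 55.1, 54.7 and 25.1 CPM in CS. Only CS replicate 3 was low, while Gpm6a was lowest in CS replicate 1. The part of these cells in the Gpm6a values was not tested.

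Wt1 and Bnc1 encode zinc finger transcription factors. Wt1, which is needed for mesothelial development and is also known from kidney podocytes (ENSMUSG00000016458, chromosome 2, 105126529 to 105173616, plus strand), had 6.27, 11.2 and 6.41 CPM in SS-31H_CS and 9.80, 7.85 and 14.6 CPM in CS. CS replicate 3 was the highest, and SS-31H_CS replicate 2 lay above CS replicates 1 and 2. The log2 fold change was -0.43, the lowest of the 8, with an interval from -1.14 to 0.28 (edgeR adjusted p = 0.490), and -0.15 without CS replicate 3. Bnc1, known for its role in keratinocytes and germ cells (ENSMUSG00000025105, chromosome 7, 81966672 to 81992292, minus strand), had 21.3, 18.8 and 11.9 CPM in SS-31H_CS and 11.1, 13.8 and 17.0 CPM in CS. Its groups overlapped, with a log2 fold change of 0.31 and an interval from -0.26 to 0.88 (edgeR adjusted p = 0.533), and 0.13 without SS-31H_CS replicate 1. Of its exon bases, 98 (2.11%) are shared with a pseudogene on the other strand, while the other 7 genes share no exon base with another gene.

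**Figure D2:**
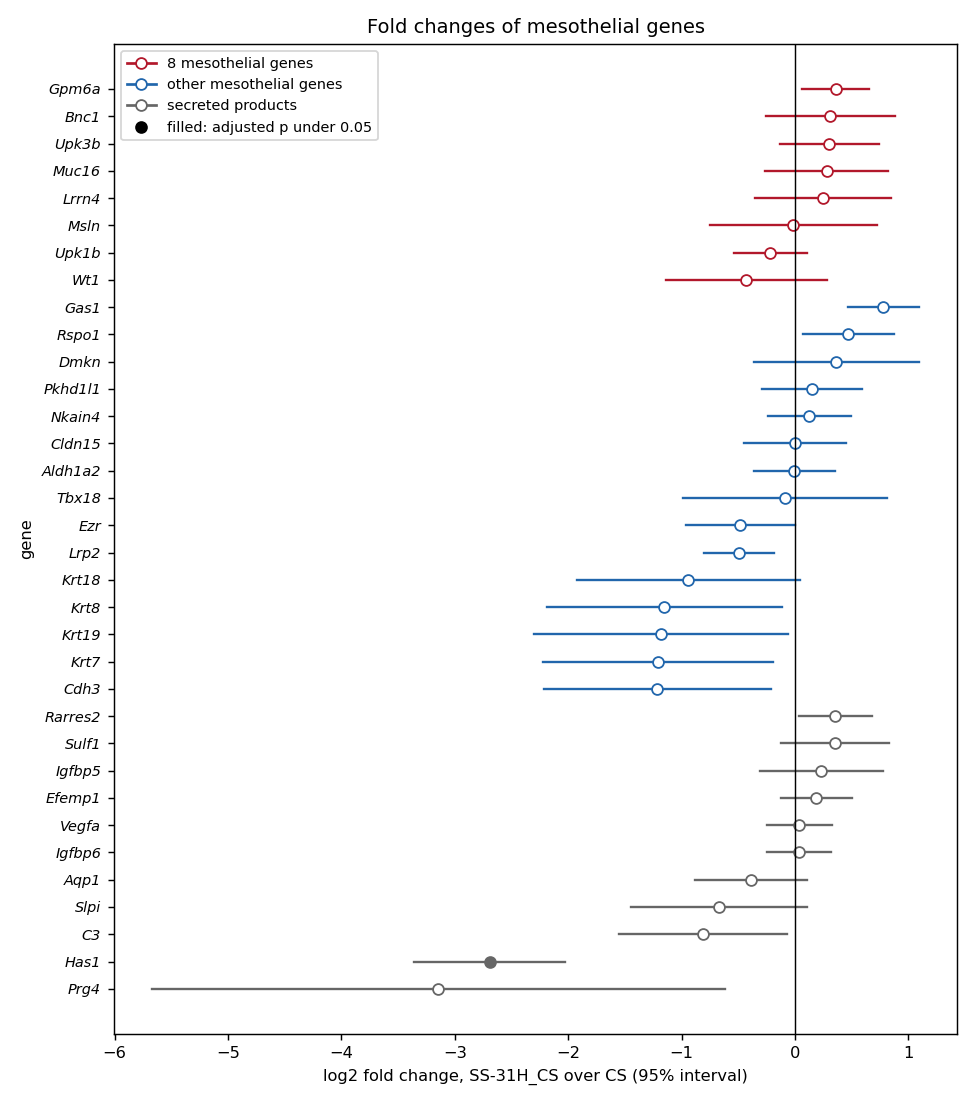
Log2 fold change, SS-31H_CS over CS, with its 95% interval from edgeR for the 8 mesothelial genes, 15 other mesothelial genes and 11 genes of secreted products, ordered by value within each group. The intervals of 7 of the 8 genes cross 0, that of Gpm6a runs from 0.07 to 0.65, and the filled point is Has1 at -2.69.

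Levels were set side by side per length, as FPKM. Msln was the highest with a mean of 85.6 FPKM over the 6 libraries (55.3 to 119.9), ahead of Upk3b at 57.3 FPKM (44.2 to 81.5). Their ranges overlapped, although Msln was above Upk3b within each of the 6 libraries. Gpm6a averaged 31.8 FPKM and Upk1b 31.5 FPKM over the 6 libraries, with overlapping ranges, but their order differed between the groups. Gpm6a was the higher in the 3 SS-31H_CS libraries (34.05, 40.7 and 34.2 FPKM, against 33.8, 29.7 and 25.8 FPKM for Upk1b). Upk1b was the higher in the 3 CS libraries (30.1, 32.6 and 37.05 FPKM, against 23.3, 29.6 and 28.7 FPKM for Gpm6a). Lrrn4 followed at 15.7 FPKM (9.36 to 21.6) and Bnc1 at 3.37 FPKM (2.35 to 4.59), with no overlap with the genes above or below them. The transcription factor Wt1 at 1.50 FPKM (1.01 to 2.23) and the mucin Muc16 at 1.35 FPKM (0.80 to 1.76) were the lowest and overlapped. FPKM divides by length, which for Muc16 was 26383 bases as implied by the deposited values, the longest of the 8.

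The 8 genes did not move as a single block across the libraries. Their summed CPM was 884, 870.3 and 607 in SS-31H_CS replicates 1, 2 and 3, against 574, 688 and 885 in CS replicates 1, 2 and 3, with means of 787 ± 156 in SS-31H_CS and 716 ± 157 in CS (SD, n = 3 each). The highest sums were thus found in both groups, in SS-31H_CS replicate 1 and CS replicate 3. These libraries differed in makeup: Msln gave 29.8% of the sum in SS-31H_CS replicate 1 and 43.5% in CS replicate 3. The ratio of Msln to Upk3b in CPM was 0.919, 1.71 and 0.954 in SS-31H_CS and 1.26, 1.03 and 2.12 in CS.

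Across the 6 libraries, Pearson's r of log2 CPM over the 28 pairs of the 8 genes had a median of 0.55 and ran from -0.44 to 0.96. These are descriptions of 6 points that share library and depth. By this r over all 6 libraries, Lrrn4, Muc16, Bnc1 and Upk3b varied most alike. Lrrn4 and Muc16 had an r of 0.96, Lrrn4 and Bnc1 of 0.93, Bnc1 and Muc16 of 0.86, Lrrn4 and Upk3b of 0.83, and Bnc1 and Upk3b of 0.82. This r also takes in any difference between the groups. With each group's mean taken off first, Upk1b was nearer to Lrrn4 (0.88), Bnc1 (0.91) and Muc16 (0.87) than Upk3b was (0.82, 0.78 and 0.69). Over all 6 libraries, Msln was nearer to Bnc1 (0.75) and Wt1 (0.73) than to Upk3b (0.26). Wt1 stood apart from the set of 4 genes, with r of -0.44 to Upk3b and 0.11 to Bnc1. With each group's mean taken off first, these were -0.25 and 0.41.

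**Figure D3:**
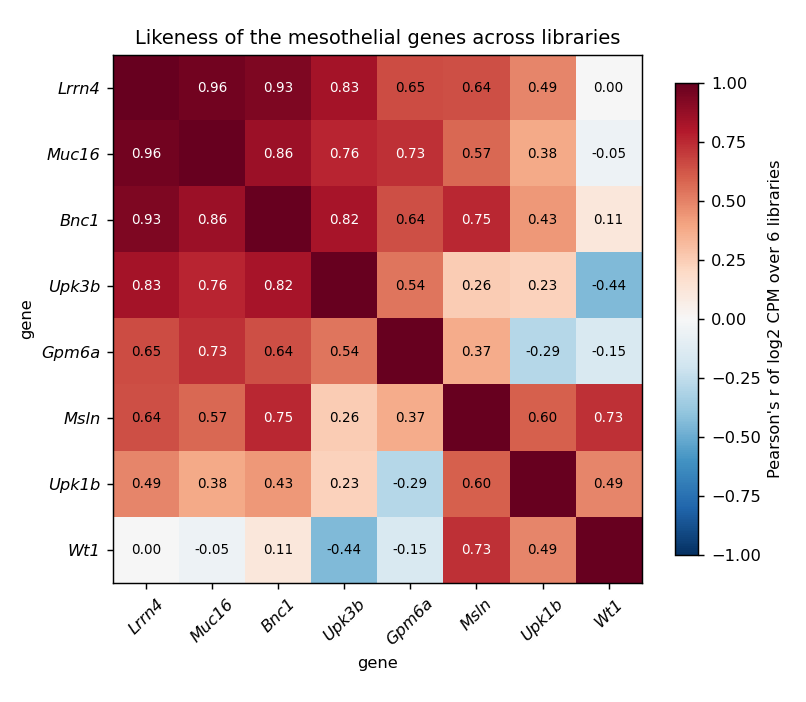
Pearson's r of log2 CPM over the 6 libraries for each pair of the 8 mesothelial genes, red for positive and blue for negative values. The block at the upper left holds Lrrn4, Muc16, Bnc1 and Upk3b, with r from 0.76 to 0.96, and the last row and column show Wt1 at -0.44 to 0.73.

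The promoters of Lrrn4, Upk3b, Bnc1 and Muc16, which varied most alike by r over all 6 libraries, are shown to compare their letters. Each is the 250 bases before the RefSeq start, 5′ to 3′ on the gene's strand (GRCm38.p6). Capitals mark GGAATG or its reverse complement, the letters bound by TEAD factors, the DNA-binding partners of YAP.
Lrrn4, chr2:132880863-132881112, minus strand: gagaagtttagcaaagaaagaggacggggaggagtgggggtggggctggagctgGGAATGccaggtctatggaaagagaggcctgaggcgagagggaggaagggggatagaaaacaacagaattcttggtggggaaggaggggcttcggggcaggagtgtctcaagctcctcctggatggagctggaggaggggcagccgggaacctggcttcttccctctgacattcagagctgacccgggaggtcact
Upk3b, chr5:136038246-136038495, plus strand: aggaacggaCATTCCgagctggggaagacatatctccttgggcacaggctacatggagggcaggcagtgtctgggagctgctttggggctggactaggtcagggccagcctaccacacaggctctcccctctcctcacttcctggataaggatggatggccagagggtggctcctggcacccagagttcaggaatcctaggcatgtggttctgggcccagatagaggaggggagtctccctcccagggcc
Bnc1, chr7:81992300-81992549, minus strand: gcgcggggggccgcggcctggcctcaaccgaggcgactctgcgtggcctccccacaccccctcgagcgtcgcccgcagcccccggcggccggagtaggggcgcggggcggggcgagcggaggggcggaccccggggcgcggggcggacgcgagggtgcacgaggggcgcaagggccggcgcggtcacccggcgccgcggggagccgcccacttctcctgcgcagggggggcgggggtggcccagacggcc
Muc16, chr9:18674604-18674853, minus strand: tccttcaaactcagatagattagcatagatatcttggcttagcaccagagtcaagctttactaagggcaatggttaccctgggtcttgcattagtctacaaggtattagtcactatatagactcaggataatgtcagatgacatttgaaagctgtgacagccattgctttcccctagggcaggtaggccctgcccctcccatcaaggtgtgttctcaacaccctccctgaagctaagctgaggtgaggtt
GGAATG was found once before Lrrn4, at -196 to -191, and once, as its reverse complement, before Upk3b, at -241 to -236, counted from the start. It was not found before Bnc1 or Muc16, and 12.6% of 32851 promoters of the same length hold it on either strand. GCGGGGGCG and GCGTGGGCG, letters bound by WT1 and EGR factors, AGATAA, bound by GATA factors, and TATAAA, the TATA box, were searched on both strands and were found in none of the 4. They are held by 2.57%, 0.536%, 9.99% and 12.4% of promoters in that order. Gpm6a, which also has RefSeq promoters that are not printed here, holds GGAATG at -125 to -120 before a start. It holds TATAAA, as its reverse complement, at -211 to -206 before another start. The Bnc1 promoter is 83.6% G and C and that of Muc16 46.4%, so genes with an r of 0.86 have start regions of different composition. A match is a description of letters, not a binding site.

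The 10 genes most like the mean z-score of the 8 across the 6 libraries, out of 15748 genes averaging 1 CPM or more, were Evi5l, Gm9844, Trp53rka, Recql4, Mex3d, 1500011B03Rik, Fau, Mrpl53, Zfp771 and Zfp597, with r from 0.95 to 0.97. None of these 10 is on a mesothelial list. Of the other mesothelial genes, Aldh1a2, which makes retinoic acid, ranked 20 (r 0.93), the tight junction gene Cldn15 ranked 64 (r 0.86), and the T-box factor gene Tbx18 ranked 120 (r 0.82). The keratin genes ranked from 2318 to 4476 and Nkain4 ranked 9664 (r -0.13). These ranks were read after the values were seen.

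**Figure D4:**
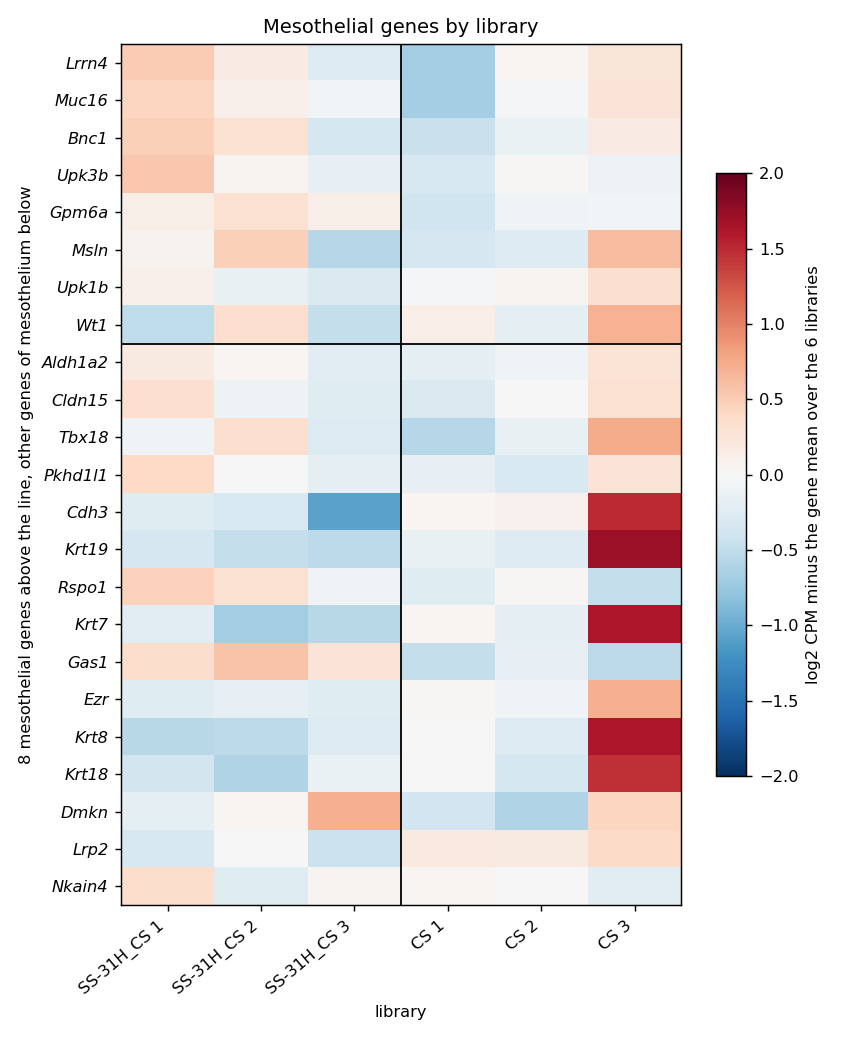
Log2 CPM of each gene minus its own mean over the 6 libraries, for the 8 mesothelial genes (above the line) and 15 other mesothelial genes (below it, ordered by likeness to the mean of the 8). The 3 SS-31H_CS libraries are left of the vertical line and the 3 CS libraries right of it, and the keratin genes and Cdh3 are dark red in CS replicate 3.

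A wider list of 16 mesothelial genes was read from the same fit. Of these, 15 were tested, 0 changed by edgeR, and 2 were higher and 6 lower at an unadjusted p under 0.05, against 9.93% higher and 8.23% lower of all genes. The median log2 fold change was -0.09, against 0.01 over all genes. With 1 library left out the median of the list ran from -0.36 (without CS replicate 1) to 0.05 (without CS replicate 3), and leaving out SS-31H_CS replicate 1, 2 or 3 gave -0.20, -0.29 or 0.04 and leaving out CS replicate 2 gave -0.21. DESeq2 called 2, Gas1 and Lrp2, against 5.94% of the genes it adjusted, and limma voom called 0. Gas1, a surface protein that binds hedgehog ligands, had 55.2, 64.2 and 52.1 CPM in SS-31H_CS and 31.0, 38.8 and 30.1 CPM in CS. All SS-31H_CS values were above all CS values, with a log2 fold change of 0.78 (SE 0.14, edgeR adjusted p = 0.0800, DESeq2 adjusted p = 0.000565). Over the 18 alternatives its adjusted p ran from 0.000565 to 0.238. Lrp2, the endocytic receptor megalin, had 46.6, 57.9 and 42.9 CPM in SS-31H_CS and 66.3, 65.5 and 75.9 CPM in CS, again without overlap, with a log2 fold change of -0.49 (edgeR adjusted p = 0.140, DESeq2 adjusted p = 0.0441) and adjusted p from 0.0441 to 0.399 over the 18 alternatives. Neither gene is made by mesothelium alone, and which cells gave these values was not tested. Aldh1a2, named here after its likeness to the 8 genes was seen, averaged 53.2 ± 7.49 CPM in SS-31H_CS and 53.5 ± 9.20 CPM in CS (SD, n = 3 each), a log2 fold change of -0.01 with an interval from -0.36 to 0.35.

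The keratins of this list, which lung epithelia also make, were far higher in CS replicate 3 than in the other 5 libraries. Krt7 had 499.9, 363 and 401 CPM in SS-31H_CS and 604, 519.8 and 1795 CPM in CS, with a log2 fold change of -1.21 (edgeR adjusted p = 0.217) and -0.42 without CS replicate 3. Krt19, named after its values were seen, had 271, 245 and 237 CPM in SS-31H_CS and 307, 285 and 1119.5 CPM in CS, with a log2 fold change of -1.18 and -0.24 without CS replicate 3. Without that library the log2 fold change was -0.32 for Krt8 and -0.18 for Krt18, against -1.15 and -0.94 with it. Cdh3, the gene of P-cadherin, had 5.56, 5.32 and 3.06 CPM in SS-31H_CS and 6.73, 6.99 and 18.6 CPM in CS. Of the 8 mesothelial genes, 6 were also above their own mean over the 6 libraries in CS replicate 3, by 0.70 (Wt1), 0.62 (Msln), 0.32 (Upk1b), 0.26 (Muc16), 0.24 (Lrrn4) and 0.16 (Bnc1) on the log2 scale, and Wt1, Msln and Upk1b had their highest value there. Gpm6a stood at -0.05 and Upk3b at -0.12 in that library, where the 4 keratins stood at 1.45 (Krt18) to 1.72 (Krt19).

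Of 13 genes of mesothelial secreted products, 11 were tested, 1 fell with SS-31 and none rose by edgeR, and the median log2 fold change was 0.03 (-0.06 to 0.07 with 1 library left out, being lowest without CS replicate 3). Of all genes, edgeR called 0.0707% higher and 0.0825% lower. At an unadjusted p under 0.05 in edgeR, 1 of the 11 was higher and 3 were lower, against 9.93% and 8.23% of all genes. DESeq2 called 1 of the 11, against 5.94% of the genes it adjusted, and limma voom 0. The gene that fell was Has1, one of the enzymes that make hyaluronan, the sugar polymer that mesothelium sheds into pleural fluid. Has1 had 2.25, 2.20 and 1.88 CPM in SS-31H_CS and 14.3, 8.88 and 17.8 CPM in CS. Every SS-31H_CS library was below every CS library, at 2.11 ± 0.198 CPM in SS-31H_CS and 13.7 ± 4.52 CPM in CS (SD, n = 3 each), a log2 fold change of -2.69 (SE 0.29, edgeR adjusted p = 0.0337). The adjusted p was 0.0195 without CS replicate 2 and 0.0386 without CS replicate 3. It was above 0.05 without SS-31H_CS replicate 1 (0.0758), SS-31H_CS replicate 2 (0.129), SS-31H_CS replicate 3 (0.131) or CS replicate 1 (0.121), while the log2 fold change stayed between -2.93 and -2.46. The adjusted p of Has1 was also above 0.05 by limma voom (0.0605) and in the 3 limma fits of FPKM (0.0725 to 0.200). Set against the 8 genes in the same library, Has1 was 2.54, 2.53 and 3.10 CPM per 1000 CPM of their sum in SS-31H_CS and 25.0, 12.9 and 20.2 in CS. Fibroblasts also make Has1, and which cells it came from was not tested.

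**Figure D5:**
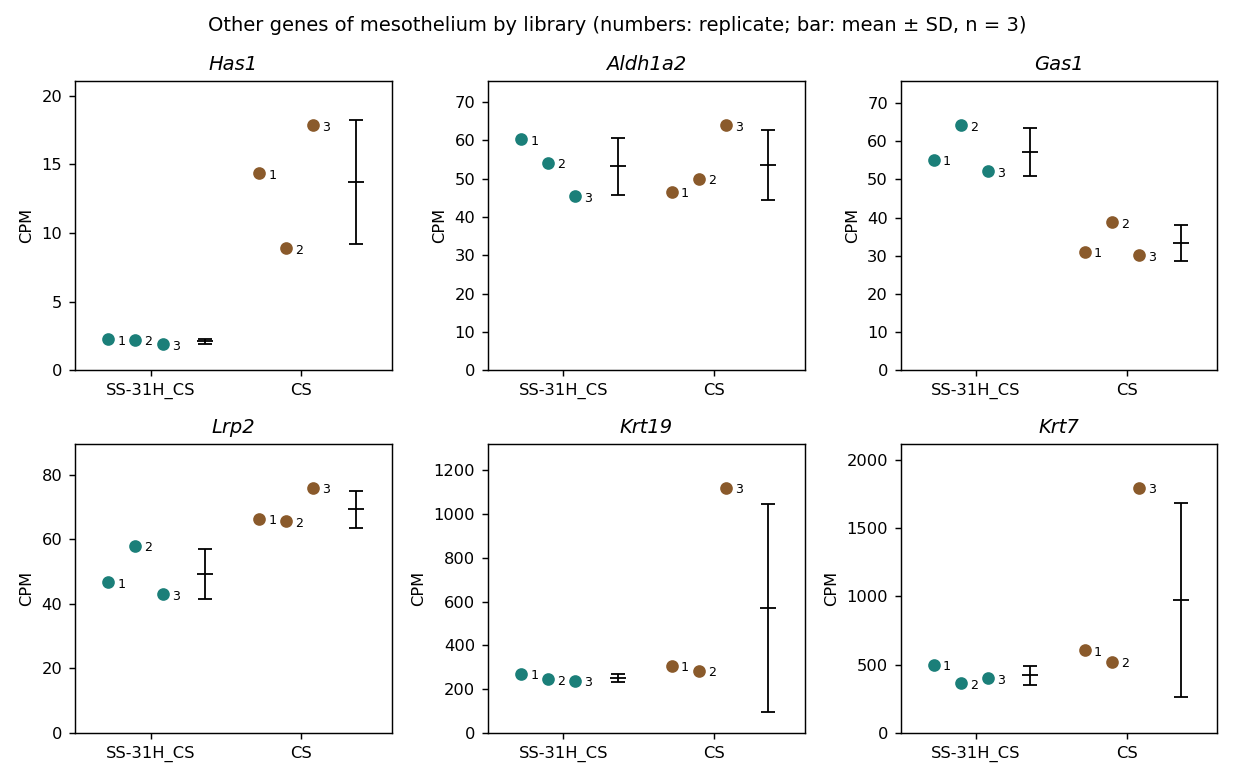
CPM of 6 other genes of mesothelium in the 3 SS-31H_CS and 3 CS libraries, with libraries as points numbered by replicate and the mean with its SD beside them. Has1 is at 1.88 to 2.25 CPM in SS-31H_CS and 8.88 to 17.8 CPM in CS, and Krt19 and Krt7 are high in CS replicate 3 alone.

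Prg4, the gene of the joint and pleural lubricant lubricin, had 1.24, 3.67 and 1.94 CPM in SS-31H_CS and 8.79, 1.32 and 50.6 CPM in CS. CS replicate 3 stood far above the rest and the groups overlapped, with a log2 fold change of -3.15 (edgeR adjusted p = 0.203) and -1.15 without CS replicate 3. C3, of the complement system, had 1623, 1855 and 1179 CPM in SS-31H_CS and 2306, 1723 and 4132 CPM in CS. Its groups overlapped and CS replicate 3 was again the highest, with a log2 fold change of -0.81 (edgeR adjusted p = 0.245). For Rarres2, the gene of chemerin, the log2 fold change was 0.36 (edgeR adjusted p = 0.246). Itln1, named after its values were seen, was not tested and had 17.4 CPM in SS-31H_CS replicate 2 and less than 1 CPM in each of the other libraries.

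Relatives of the 8 genes were read beside them. Of 13 paralogs, 10 were tested and 0 changed by edgeR, DESeq2 or limma voom. At an unadjusted p under 0.05 in edgeR, 3 were higher and 0 lower, against 9.93% higher and 8.23% lower of all genes. The median log2 fold change of the 10 was 0.43, against 0.01 over all genes. Among the 3 higher paralogs were the mucin genes Muc4 (log2 fold change 0.92, edgeR adjusted p = 0.225) and Muc1 (0.39, edgeR adjusted p = 0.273), which airway epithelium also makes. Muc4 had 30.7, 83.2 and 38.7 CPM in SS-31H_CS and 28.9, 29.5 and 22.0 CPM in CS, with SS-31H_CS replicate 2 far above the rest. Of 10 partners and targets of WT1, 9 were tested and 0 changed by edgeR, DESeq2 or limma voom. At an unadjusted p under 0.05 in edgeR, 2 were lower and 0 higher, against 8.23% lower and 9.93% higher of all genes. The median log2 fold change of the 9 was -0.12, against 0.01 over all genes. Podxl, the gene of the podocyte and endothelial sialomucin podocalyxin, had 719, 571 and 403 CPM in SS-31H_CS and 736, 779 and 1024 CPM in CS, a log2 fold change of -0.58 (edgeR adjusted p = 0.236).

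Markers of other cells in or near the pleura and of the airway were read beside these results. The counts below stand against these shares of all genes. In edgeR, 9.93% were higher and 8.23% lower at an unadjusted p under 0.05, and 0.153% were called. DESeq2 called 5.94% of the genes it adjusted, and limma voom 0.0354% of all genes. The 8 ciliated cell markers summed to 767, 817 and 1124 CPM in SS-31H_CS and 575, 548 and 405 CPM in CS. By edgeR 0 of them changed, 8 had an unadjusted p under 0.05, DESeq2 called 7 and limma voom 0, with a median log2 fold change of 1.09. Of 7 club cell markers, 5 were higher at an unadjusted p under 0.05, DESeq2 called 3 and limma voom 0, and by edgeR 1 rose (Scgb3a2, log2 fold change 1.44, edgeR adjusted p = 0.0467), and with any one library left out its adjusted p was 0.0720 to 0.167. The 10 alveolar type 1 markers summed to 6898 to 8499 CPM in SS-31H_CS and 8667 to 10698 CPM in CS, and edgeR and limma voom called 0 and DESeq2 2 of them (1 higher and 4 lower at an unadjusted p under 0.05 in edgeR). The large cavity macrophage markers summed to 313 to 367 CPM in SS-31H_CS and 398 to 475 CPM in CS. The largest parts of these sums were Icam2 (means of 140 CPM in SS-31H_CS and 184 CPM in CS) and Ltbp1 (99.3 and 107 CPM). Gata6 averaged 48.0 CPM in SS-31H_CS and 47.3 CPM in CS, and Timd4 1.31 and 1.06 CPM. Which cells gave these sums was not tested. Fibroblast markers summed to 2043 to 2377 CPM in SS-31H_CS and 2195 to 2310 CPM in CS. Of the macrophage list edgeR, DESeq2 and limma voom called 0, and Icam2 and Prg4 (2 genes) were lower at an unadjusted p under 0.05 in edgeR. Prg4 is also on the list of secreted products and was highest in CS replicate 3. Of the fibroblast list edgeR and limma voom called 0 and DESeq2 1 (2 higher and 1 lower at an unadjusted p under 0.05). Of the neuron and Schwann cell list all of these tools called 0 (3 higher at an unadjusted p under 0.05). Their part in the values of the 8 genes was not tested.

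Markers of muscle, fat, basal cells and thymocytes were also read. Some can come from tissue that adheres to a dissected lung and some from the lung itself, and their source was not tested. Cardiac muscle markers summed to 312 to 819 CPM in SS-31H_CS and 212 to 633 CPM in CS, smooth muscle markers to 554 to 910 CPM in SS-31H_CS and 660 to 794 CPM in CS, and adipocyte markers to 65.9 to 105 CPM in SS-31H_CS and 56.6 to 105 CPM in CS. Basal cell markers summed to 2.41 to 7.52 CPM in SS-31H_CS and 2.07 to 4.14 CPM in CS, skeletal muscle markers to 10.9 to 24.6 CPM in SS-31H_CS and 6.79 to 14.2 CPM in CS, and thymocyte markers to 12.6 to 26.3 CPM in SS-31H_CS and 5.12 to 15.8 CPM in CS. Myh4, Rag1 and Rag2 were at 0 in every library. Of these 6 lists edgeR, DESeq2 and limma voom called 0 genes. In edgeR, 1 thymocyte gene was higher at an unadjusted p under 0.05, against 9.93% of all genes. Of the 137 genes on the 16 lists besides the 8, 119 were tested. By edgeR 1 of the 119 rose and 1 fell, against 0.0707% and 0.0825% of all genes.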

How the data were processed

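Lung RNA was sequenced in 3 SS-31H_CS and 3 CS libraries. Per the submitters' processing notes, cutadapt 1.9.1, HISAT2 2.0.1, HTSeq 0.6.1 and GRCm38 were used, and the annotation release and strand setting are not given in the sources used here. The authors deposited 2 kinds of value, unnormalized read counts by Ensembl identifier and FPKM, which follow gene length and library total. The 8 genes and all lists were chosen with earlier results of these data known, Has1 among them, so no list is independent evidence. Symbols came from GENCODE M21 (55394 genes matched, 179 did not) and promoters from RefSeq, where 5 of the 8 genes have an entry.

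Counts were tested by edgeR 4.0.16 (R 4.3.3): quasi-likelihood test, TMM normalization, filterByExpr (minimum count 10, minimum total 15), Benjamini-Hochberg adjustment over 16965 genes, two-sided, adjusted p under 0.05. CPM used TMM-scaled sizes, and log2 CPM a prior count of 2. The test was checked on simulated data. Named genes are the 8, up to 4 of each list with the lowest p, and the 10 most like the mean of the 8. One gene that this rule names is not reported here. No libraries agreed within sampling noise. Intervals and floors cover counting error or the spread between libraries, and reads shared by similar genes such as keratins are uncertain. Alternatives were other scaling, filters, DESeq2 1.42.0, limma 3.58.1 (voom, and trend on FPKM), a replicate block and left-out libraries.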

Additional observations from a re-analysis of the deposited data

How the results depend on the processing

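No alternative called any of the 8 genes, and 136 of their 144 log2 fold changes under the 18 alternatives had the same sign. The other 8 were those of Msln, at -0.02, which became 0.055 with library size alone, 0.043 in each of the 3 fits of FPKM, 0.0029 with the replicate block and 0.59 without CS replicate 3 and SS-31H_CS replicate 3, and ran from -0.29 to 0.35 with 1 library left out, being 0.21 without SS-31H_CS replicate 3 and 0.35 without CS replicate 3. The number of all genes changed, 26, became 12 with library size alone, 648 without a low-count filter, 948 by DESeq2, 6 by limma voom, 6, 5 and 4 in the fits of log2(FPKM + 1) and log2(FPKM + 0.1) over genes averaging 0.5 FPKM or more and of log2(FPKM + 1) unfiltered, 0 with the replicate block, and 1 to 15 with 1 library left out. The other mesothelial genes changed, 0, became 1 without a filter (Gas1) and 2 by DESeq2 (Gas1 and Lrp2). Whether replicate numbers pair the libraries is not stated in the labels. Same-numbered libraries had correlations of deviations of 0.01, 0.04 and -0.06, and differently numbered ones of -0.10 to 0.07. With 3 libraries a group, these values cannot exclude a pairing. The call of Has1 was lost with the block (adjusted p = 0.145), by limma voom (0.0605) and in the 3 fits of FPKM (0.0839, 0.0725 and 0.200). With 1 library left out, the 2 left in its group are assumed to vary like the other 3. The cause of these changes was not tested. With 3 libraries a group, the intervals of 7 of the 8 genes cross 0, and that of Msln runs from -0.75 to 0.72.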
